A study of Mus musculus with 16 samples.

Results

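The cytoplasmic polyadenylation element (CPE), a U-rich stretch of a few bases in the 3′-UTR, is the binding site of the CPEB family of proteins, to which CPEB4 belongs. Together with the polyadenylation signal (PAS) and the Pumilio-binding element (PBE), CPEs determine whether an mRNA is held with a short poly(A) tail, which favours repression, or receives a longer tail, which favours translation and stability. In macrophages, which respond to bacterial products with a burst of short-lived cytokine mRNAs, the fate of an mRNA also depends on AU-rich elements built from AUUUA repeats. RNA-immunoprecipitation (RIP) recovers the mRNAs that come down with an antibody, and the ratio of RIP to the total RNA of the lysate (Input) says which mRNAs are over- or under-represented in the recovered material.

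Described here is the anti-CPEB4 RIP of wild-type (WT) bone marrow-derived macrophages (BMDMs) after lipopolysaccharide (LPS), a bacterial cell wall component, set against its own Input. It takes up 4 of the 16 samples of the series, because the RIP library and the Input library were each run on 2 flow-cell lanes, and the deposited counts sum the lanes. There was 1 library of each kind, from culture 76 (strain C57BL/6J 129, WT), stimulated for 9 h with 10 ng/ml LPS. The same RIP and Input are given beside it for a CPEB4 KO culture (number 73, Cpeb4-/-, also given LPS for 9 h), which lacks the antigen. They are also given for untreated WT cells of culture 76. Genotype and culture go together in these libraries, so they cannot be told apart in any difference between WT and KO. Cells had been differentiated for a week in medium conditioned by L cells, and were crosslinked with formaldehyde before lysis. The labels name depletion of ribosomal RNA for Input material, so this step and the immunoprecipitation cannot be told apart in any RIP over Input ratio. With 1 library on each side there was no replicate and no test between conditions. The intervals given below are exact 95% intervals (Clopper-Pearson) that cover counting error only, and reads carried no molecular identifiers.

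The tables list read counts over annotated 3′-UTR regions of build mm10. One region was kept for each of 14925 gene symbols, the one with the most reads over the 8 count columns, and 5875 of them (genes with at least 50 reads in the WT LPS pair) were compared. Each library was scaled to its sum of 3′-UTR reads and 1 read was added before the log2 ratio was taken. A gene is called enriched over a log2 ratio of 1, which is 2-fold, and depleted under -1. The WT LPS RIP held 2492300 3′-UTR reads and its Input 1897360. For every 100 reads of the library total there were 70.1 such reads in the RIP and 49.1 in the Input, where reads in overlapping regions count more than once. In the KO LPS pair the values were 31.8 in the RIP and 51.1 in the Input. On library totals all WT LPS log2 ratios would therefore stand 0.51 higher, and all KO LPS log2 ratios 0.68 lower, so every direction below is relative to the other 3′-UTRs of the same libraries. Macrophage markers were present in the WT LPS Input: 11 of 11 listed genes in the table had reads, at a median of 107 RPKM, whereas T cell, B cell, neutrophil, erythroid and fibroblast markers summed to 0 to 2 reads a list. These low sums cover few markers. A counted region existed for 3 of 5 T cell, 3 of 4 B cell and 1 of 6 neutrophil genes. It existed for 2 of 6 erythroid, 2 of 5 fibroblast and 0 of 2 adipocyte genes.

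The WT LPS RIP differed widely from its Input. Among the 5875 genes, 1390 were enriched (23.7%) and 1460 were depleted (24.9%), with a median log2 ratio of 0.02 and a standard deviation over genes of 1.35. On library totals the split was 2128 enriched and 860 depleted genes. A log2 ratio over 3, which is 8-fold, was reached by 68 genes, and 32 fell below -3. The range was narrower in the KO LPS pair, where 11.8% of 4478 genes were enriched and 12.2% were depleted, with a standard deviation of 0.87. In the untreated WT pair 25.3% of 5026 genes were enriched and 20.0% depleted. Genes next to the threshold had nearly the same log2 ratio on either side of it. Cntd1, with 141 RIP and 53 Input reads, was just inside at a log2 ratio of 1.0014, and Nrbf2, with 41 and 15 reads, was just outside at 0.9988.

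**Figure D1:**
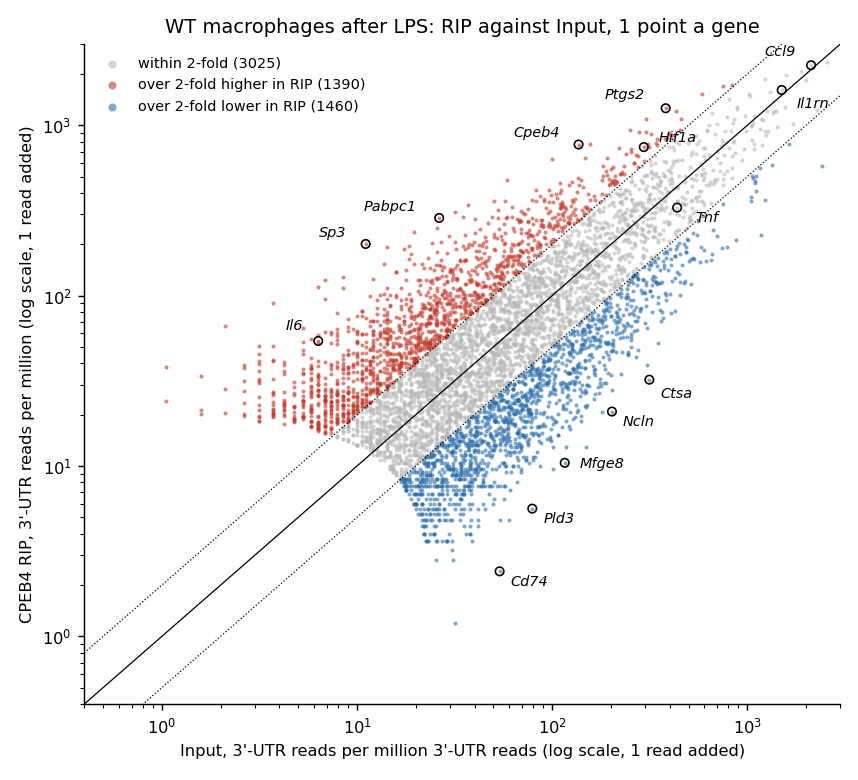
WT LPS RIP against WT LPS Input, 1 point for each of the 5875 genes, in CPM, scaled to the 3′-UTR reads of each library after adding 1 read (both axes logarithmic). The solid line marks equal shares and the dotted lines 2-fold; 1390 genes lie above (red) and 1460 below (blue), Sp3, Pabpc1 and Cpeb4 are among the former, Pld3, Ncln and Ctsa among the latter, and the empty lower left corner reflects the minimum of 50 reads.

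The 3′-UTRs at the top of the ranking carried CPEs, and those at the bottom mostly did not. The canonical CPE was searched as TTTTAT or TTTTAAT on the sense strand, the DNA letters of UUUUAU and UUUUAAU, and each of the 12 genes with the highest log2 ratio, among those with at least 10 reads in each library, held at least 1, 57 in all. Of the 12 lowest genes under the same minimum, 3 held 1 each and 9 held none. The windows below show the CPE nearest to the end of the 3′-UTR in high-ranking genes, in Cpeb4 and in inflammatory mRNAs, and then the only CPE in each of the 3 low-ranking genes that had one, so that a reader can see that the element itself is the same in both. Each line gives 30 bases from the reference GRCm38.p6 (mm10), 5′ to 3′ on the mRNA strand, with the CPE in capitals.

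Csgalnact2 (chr6:118107527-118107556, minus strand): ttttaaactagcTTTTATttgaagatggaa
Ep300 (chr15:81651285-81651314, plus strand): cttgccgataggTTTTATtattttttttaa
Id2 (chr12:25093873-25093902, minus strand): tgctttgattttTTTTATgctatgttataa
Rbm7 (chr9:48488709-48488738, minus strand): atactatgttccTTTTAATatattaaatac
Cpeb4 (chr11:31935406-31935435, plus strand): gggtaattcattTTTTATtaaagtcatttt
Il6 (chr5:30019909-30019938, plus strand): tttgtgatgtatTTTTATaatgtttagact
Hif1a (chr12:73946997-73947026, plus strand): tttctacattcaTTTTATtgccattttcta
Plod1 (chr4:147910253-147910282, minus strand): tctctttcaggtTTTTATcaccaagagcaa
Ctsa (chr2:164840943-164840972, plus strand): aaataagtatggTTTTATctaaggaaattc
Tmem63a (chr1:180974600-180974629, plus strand): gaggatatgcacTTTTATtcccccatacac

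The window of Id2 held 18 U of 30 bases, and those of Plod1, Ctsa and Tmem63a held 11, 11 and 9. A canonical CPE was present in 71.0% of all regions compared, in 91.8% of the enriched ones and in 37.4% of the depleted ones, and a match says only that the letters are there. Wide regions hold the letters more often. Among regions of 1000 to 2000 bases the share was 74.3% over all, 96.2% of the enriched and 42.8% of the depleted.

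Among the most enriched mRNAs, Sp3, a zinc finger transcription factor, had 500 RIP and 20 Input reads over its 1639-base 3′-UTR, a log2 ratio of 4.18 (3.61 to 4.97), or 18.2-fold. Csgalnact2, an enzyme of chondroitin sulfate synthesis, had 305 and 12 reads (4.16, 3.45 to 5.24), and Fam76b 280 and 11 (4.16, 3.41 to 5.30). Pnrc2, an adaptor of mRNA decay, had 320 and 15 reads (3.93), and Ep300, a histone acetyltransferase, 237 and 12 (3.80). The intervals of these genes overlap, so their order is not fixed by the counts. A ratio above that of Sp3 was reached by 5 genes with fewer than 10 Input reads, among them Ch25h, the cholesterol 25-hydroxylase, with 94 RIP reads and 1 Input read, and Tceb1, elongin C, with 165 and 3.

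Rap1a, a small GTPase of integrin signalling, followed with 479 and 26 reads (3.76), and Smim15 with 586 and 36 (3.59). Stag2, a cohesin subunit, had 380 and 25 reads (3.48). Pabpc1, the main cytoplasmic poly(A)-binding protein, had 711 and 49 (3.44, 3.05 to 3.91), Id2, an inhibitor of helix-loop-helix factors, 464 and 32 (3.42), and Rbm7, an RNA-binding protein of nuclear RNA decay, 488 and 34 (3.41). Of the 12 highest genes, 10 carried a CPE prediction and 2, Pnrc2 and Pabpc1, did not. Their GC content lay between 27.6% and 35.6%. The 12 genes were also above 0 in the KO LPS pair, from 1.42 for Rbm7 to 3.77 for Stag2, where Stag2 had 173 RIP and 21 Input reads. Sp3 stood at 2.76 (2.18 to 3.46) and Csgalnact2 at 1.63 (0.69 to 2.73) there.

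Among the most depleted mRNAs, Pld3, a phospholipase D family member of the endolysosome, had 13 RIP and 149 Input reads over a 298-base region, a log2 ratio of -3.81 (-4.85 to -3.09), or 14.1-fold lower. Below it, with fewer than 10 RIP reads, lay Tcn2, a vitamin B12 carrier (2 and 59 reads), and Cd74, the invariant chain of MHC class II (5 and 101 reads). Elovl1, which elongates very long chain fatty acids, had 11 and 113 reads (-3.64), Plod1, a collagen lysyl hydroxylase, 31 and 281 (-3.53, -4.16 to -3.04), and Rabac1, which binds prenylated Rab proteins, 11 and 101 (-3.48). Mfge8, a secreted protein that bridges phagocytes to apoptotic cells, had 25 and 219 reads (-3.47, -4.18 to -2.92). The region of Elovl1 overlaps that of another gene, as does the region of Ctsa, and without strand the reads of overlapping genes cannot be told apart.

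Ctsa, a lysosomal carboxypeptidase, had the most reads of this group, 79 RIP and 596 Input (-3.29, -3.67 to -2.97), and was the 1 gene of the 12 with a CPE prediction. Fam234a had 23 and 190 reads (-3.39), Ncln, an ER membrane protein, 51 and 383 (-3.28), Tspan17, a tetraspanin, 10 and 78 (-3.24), and Clptm1, a transmembrane protein, 31 and 222 (-3.19). Lsm4, a component of the Sm-like ring of RNA processing, had 15 and 107 (-3.15), and Tmem63a, a cation channel, 24 and 164 (-3.12). GC content in these 12 genes ran from 52.5% to 59.9%, so that it did not overlap that of the 12 highest genes, and widths ran from 171 to 2110 bases. The 12 genes were below 0 in the KO LPS pair as well, from -0.97 for Ctsa to -2.10 for Tmem63a. Families named by symbol after these values were seen gave the following counts: of 82 Tmem transmembrane protein genes tested 16 were enriched (19.5%) and 26 depleted (31.7%), near the 23.7% and 24.9% of all genes, and of 21 Rbm RNA-binding motif genes 11 were enriched (52.4%) and none was depleted.

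The mRNAs of the CPEB family were themselves among the enriched ones. Cpeb4 had 1920 RIP and 258 Input reads over a 4102-base region with 17 canonical CPEs, a log2 ratio of 2.5 (2.31 to 2.70). Cpeb2 had 516 and 74 reads (2.39, 2.05 to 2.78) and Cpeb3 58 and 6 (2.68, 1.67 to 4.38), which do not differ beyond counting error. Cpeb1 had 1 RIP read and no Input read, too few for a ratio. In the KO LPS pair Cpeb4 had 320 RIP and 79 Input reads, a log2 ratio of 2.79 (2.44 to 3.18). Whether the counted region lies in the deleted part of the gene is not given in the sources used here, and the reads of this region do not check the genotype. Cpeb2 stood at 1.51 (1.09 to 1.96) in the KO LPS pair, below its WT value by more than counting error. Cpeb3 stood at 1.12 (0.28 to 2.01) there, an interval that overlaps its WT one. The GC content was 34.3% for the Cpeb4 region, 33.4% for Cpeb2 and 39.4% for Cpeb3.

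The ratio rose with the width of the 3′-UTR, but less than with its base composition. The median log2 ratio was -0.97 over 168 regions under 200 bases, -0.64 at 200 to 500, -0.30 at 500 to 1000, 0.04 at 1000 to 2000, 0.31 at 2000 to 4000 and 0.34 at 4000 and over. Of the 800 regions under 500 bases 43.2% were depleted and 14.9% enriched, against 14.6% and 27% of the 2114 regions of 2000 bases and over. The difference between these medians was 1.02. Enriched genes had a median width of 1754 bases (quartiles 998 to 2749) and depleted genes one of 1037 (522 to 1813), so the distributions overlap.

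GC content separated the genes more sharply. Enriched 3′-UTRs had a median GC content of 37.0% (quartiles 34.8% to 39.8%) and depleted ones of 52.2% (49.2% to 55%). Between 30% and 35% GC the median log2 ratio was 1.89 and 86.0% of 406 regions were enriched. It fell to 1.17 at 35% to 40%, 0.34 at 40% to 45%, -0.48 at 45% to 50% and -1.17 at 50% to 55%. At 55% and over it was -1.63, and 72.4% of 510 regions were depleted. Across the 5875 genes Spearman's rho with GC content was -0.79 and that with width 0.22, given as a description of 2 libraries whose points share depth and base composition. The KO LPS pair had the same order of GC bins, with medians of 1.23 at 30% to 35% and -0.73 at 55% and over, and a rho of -0.70 with GC content. Within GC bins the width difference shrank from 1.02 to 0.44, above 0 in 6 of 6 bins.

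The authors scored each region with a set of rules for CPE-mediated control, which read the number and spacing of CPEs, PBEs and PASs and predict repression, activation or both. A prediction of any kind was present in 42.4% of all regions compared (41.1% to 43.6%, Wilson interval), in 67.1% of the enriched ones (64.5% to 69.5%) and in 12.8% of the depleted ones (11.2% to 14.6%). The median log2 ratio was 0.61 over 2489 regions with a prediction and -0.57 over 3386 without. Put the other way, 37.4% of regions with a prediction were enriched and 7.51% depleted, against 13.5% and 37.6% of those without.

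The classes of prediction differed less from each other than from regions without one. Regions predicted only to be repressed had a median of 0.68 (n = 1348), those with strong early activation 0.46 (n = 527) and those with other forms of activation 0.48 (n = 614). Where strong early activation was predicted together with repression the median was 0.85 (n = 287), and where it was predicted without repression 0.15 (n = 240), with a GC content of 40.4% and 45.8%. Weak early activation gave 0.74 with repression (n = 267) and 0.25 without (n = 291).

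In each width bin with at least 20 regions on both sides, regions with a prediction stood above those without. At 200 to 500 bases the medians were 0.22 and -1.01, at 500 to 1000 bases 0.57 and -0.62, at 1000 to 2000 bases 0.71 and -0.43, at 2000 to 4000 bases 0.63 and -0.25, and at 4000 bases and over 0.56 and -0.48. The mean of the 5 differences was 1.10, and they ran from 0.88 to 1.22. In the KO LPS pair the mean difference was 0.36, and in the untreated WT pair 1.0.

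**Figure D2:**
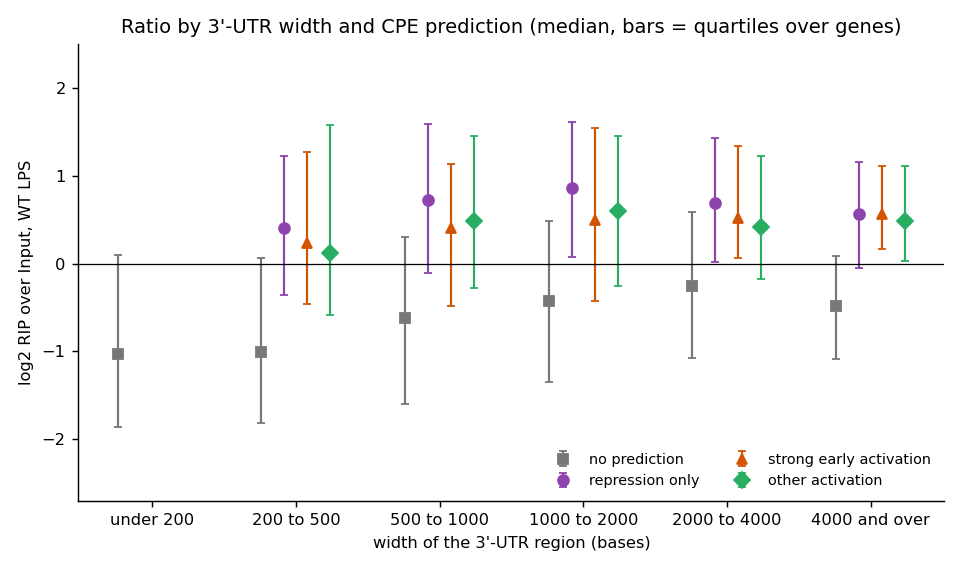
Log2 RIP over Input in the WT LPS pair by width of the 3′-UTR region in bases (horizontal axis) and CPE prediction (symbols); symbols are medians over genes and bars run from the lower to the upper quartile, for groups of at least 20 genes. The 3 predicted classes lie above 0 in each bin they fill, and regions with no prediction lie below 0 in each bin, between -1.03 and -0.25.

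Part of this difference went with GC content, and a part did not. Within bins of GC content the difference between regions with and without a prediction was 0.48 in the WT LPS pair, positive in 6 of 6 bins, and within cells of equal width bin and GC bin it was 0.41, positive in 19 of 20 cells. It was largest in GC-rich 3′-UTRs: 0.18 between 30% and 35% GC (medians of 1.95 and 1.77) and 0.92 at 55% and over (medians of -0.79 for 54 regions with a prediction and -1.71 for 456 without). In the KO LPS pair the same 2 differences were 0.01 and 0.01, with 3 of 6 GC bins and 8 of 17 cells above 0. In the untreated WT pair they were 0.35 and 0.37. With 1 library each the difference between the WT and KO pairs has no test. Within width bins strong early activation stood 0.21 below repression only. Within GC bins neither class stood above the other throughout: the mean difference was 0.04, above 0 in 3 of 5 bins, from -0.14 to 0.23.

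**Figure D3:**
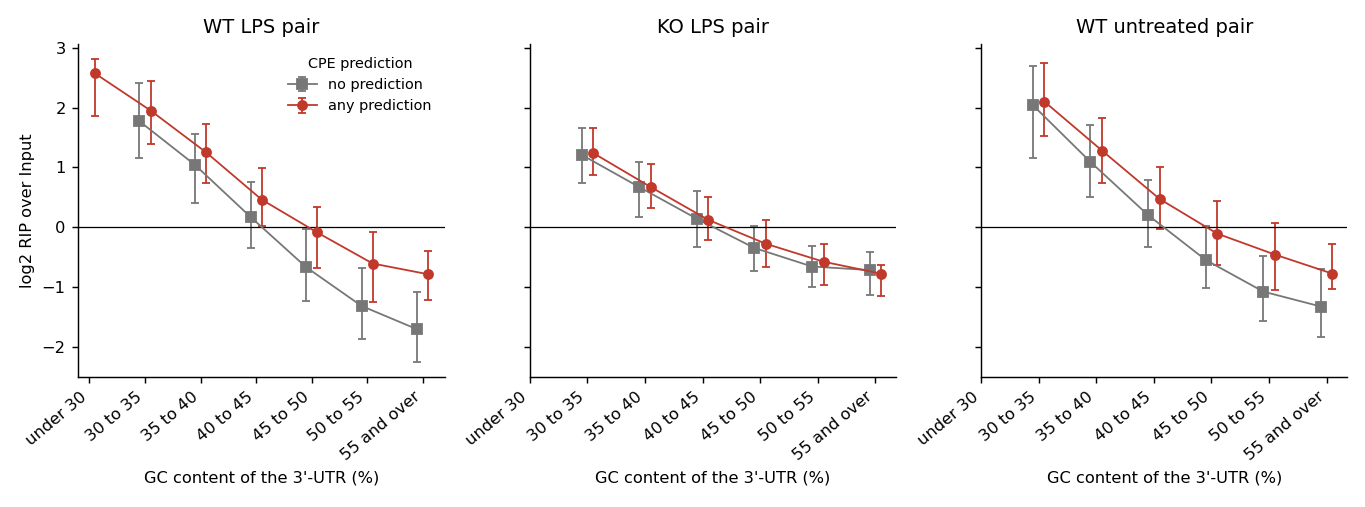
Log2 RIP over Input by GC content of the 3′-UTR in percent (horizontal axis) for regions with (red circles) and without (grey squares) a CPE prediction, in the WT LPS, KO LPS and WT untreated pairs; symbols are medians over genes and bars the quartiles, for groups of at least 20 genes. The ratio falls with GC content in all 3 pairs, and the circles stand above the squares in both WT pairs, by 0.48 on average in the WT LPS pair, while the mean difference in the KO LPS pair is 0.01.

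The ratio followed the number of elements. Among regions of 1000 to 2000 bases the median log2 ratio was -1.16 with no canonical CPE (n = 462), -0.26 with 1 (n = 406), 0.21 with 2 (n = 333), 0.59 with 3 (n = 237) and 1.26 with 4 or more (n = 361). In the KO LPS pair it went from -0.57 to 0.48 over the same steps. Non-canonical CPEs, variants such as UUUUACU, gave medians of -0.58 with none and 1.56 with 4 or more. PBEs gave -0.12 with none (n = 1305) and 1.32 with 3 (n = 23). For AUUUA the medians were -0.99 with none (n = 295) and 1.18 with 4 or more (n = 531). GC content fell along each of these series, from 51.2% with no canonical CPE to 37.8% with 4 or more, and from 51.8% with no AUUUA to 38%, and its part in them was not tested apart from the GC bins above and the hexamers below.

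Every hexamer was then compared across 2961 regions of 500 to under 2000 bases, as the mean log2 ratio of regions that hold it minus that of regions that do not. Of 3866 hexamers with at least 100 regions on each side, UUUUUA came first in the WT LPS pair (difference of 1.42), followed by AUUUUU (1.37), UAUUUU (1.33) and UUUUAA (1.28). The CPE hexamer UUUUAU ranked 5 with 1.26. The other arrangements of its letters, UUAUUU and UUUAUU, ranked 20 (1.07) and 35 (1.01), so that the 6 arrangements of 5 U and 1 A lay between 1.01 and 1.42. The variant CPE hexamer UUUUGU ranked 70 (0.91) and the PAS AAUAAA 794 (0.42). At the other end stood CCCUGG (-0.96), GGGCCC (-0.95) and CCCUGC (-0.92).

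When each region was first set against the mean of its GC and width bin, the first 5 hexamers in the WT LPS pair were all runs of U with at most 1 A. UUUUUA ranked 1 (0.46), AUUUUU 2 (0.40), UUUUUU 3 (0.40) and UUUUAU 4 (0.35), whereas AAUAAA ranked 3823 (-0.11). Close behind came hexamers that are not U-rich: GGUCGC ranked 7 (0.31), GGCGGA 8 (0.31) and CGCGUG 9 (0.29). UUUAUU and UUAUUU, of the same letters as the CPE hexamer, ranked 49 and 58 (0.20 each). In the KO LPS pair, over 2196 of these regions, the same step left UUUUUA at 0.02 (rank 1700) and UUUUUU at -0.04 (rank 3064). The KO LPS differences before this step were 0.54 for UUUUUA (rank 46) and 0.49 for UUUUAU (rank 121). The hexamers overlap each other in the same U-rich stretches and are not independent.

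The WT LPS ratios were close to those of the untreated WT pair, which shares no library with them but comes from the same culture, 76. Spearman's rho across 4712 genes with at least 50 reads in both pairs was 0.95, given as a description. Of 1390 enriched genes 1130 had 50 reads in the untreated pair, and 1129 of those were above 0 there, with 968 over 1. Of 1098 depleted genes with enough reads 1095 were below 0. Against the KO LPS pair, which is of the other culture, rho was 0.73 across 4463 genes. Of 884 enriched genes with 50 reads in that pair 829 were above 0, at a median of 0.93 against 1.55 in the WT LPS pair, and 409 were over 1. Of 1237 depleted genes 1123 were below 0, at medians of -0.72 and -1.66. Past the threshold in opposite directions in the WT LPS and KO LPS pairs were 4 genes, named after their values were seen: Csnk1e and Polr2d, at 1.09 and 1.05 in WT and -1.11 and -1.28 in KO, and Aif1 and Nxf1, at -1.36 and -1.01 in WT and 1.21 and 1.33 in KO. No gene was so placed between the WT LPS and the untreated WT pair.

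Genes were grouped by function in 30 lists, and each list's counts are to be read against the 23.7% enriched and 24.9% depleted among all genes tested. SR and hnRNP proteins, which bind pre-mRNA and control splicing, had 25 of 31 members tested: 17 were enriched and none was depleted, with a median log2 ratio of 1.52 against 0.02 for all genes. Hnrnpf led with 308 RIP and 33 Input reads (2.79, 2.31 to 3.39), Srsf1 had the most Input reads, 345, with 1256 in the RIP (1.47, 1.30 to 1.65), and Hnrnpl was lowest with 99 and 93 reads (-0.30, -0.73 to 0.12). Neither Hnrnpf nor Hnrnpl held a canonical CPE. The median GC content of the list was 35.9%, and its median in the KO LPS pair was 0.85.

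Factors of deadenylation, mRNA decay and polyadenylation, among which are the CPEB proteins, the CCR4-NOT deadenylase and the Pumilio proteins, had 41 of 56 members tested, 19 enriched and none depleted, at a median of 0.93. Pabpc1 was highest, as above. Cnot7, a catalytic subunit of the deadenylase, stood at 2.53, and the translational repressor Pum2 at 2.12. Zfp36l1 and Zfp36l2, which bind AU-rich elements and promote decay, stood at 1.64 and 1.51, whereas their relative Zfp36 (tristetraprolin) had 928 and 595 reads (0.25, 0.10 to 0.40). Edc3, an enhancer of decapping, was lowest with 161 and 220 reads (-0.84), and Ago2, the microRNA effector, had the most Input reads, 1437, with 1281 in the RIP (-0.56). Both regions overlap that of another gene. The median in the KO LPS pair was 0.34.

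Ubiquitin-conjugating E2 enzymes (27 of 32 tested) had 9 enriched (33.3%) and 4 depleted (14.8%) members, against 23.7% and 24.9% of all genes, and a median of 0.52. Ube2e1, with 131 and 18 reads, stood at 2.40 and Ube2v1, with 112 and 462, at -2.43. In the KO LPS pair these 2 genes stood at 2.39 (1.8 to 3.08) and -1.37 (-1.76 to -1.03), and the list median was -0.08. Zfp zinc finger genes, of which only 65 of 282 had enough reads, had 20 enriched and 9 depleted members (median 0.46). Low-abundance genes pass the minimum of 50 reads through the RIP where they are high in it. With a minimum of 20 Input reads in its place the median of the Zfp list stood 0.04 below that of all genes, and that of the cytosolic ribosomal proteins (19 of 78 tested, 5 enriched, 3 depleted, median 0.31) stood 0.53 below. Rpl41, the ribosomal protein with the most Input reads, had 189 RIP and 352 Input reads (-1.29, -1.55 to -1.03), and Rpl5, with 54 and 7 reads, stood at 2.39.

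**Figure D4:**
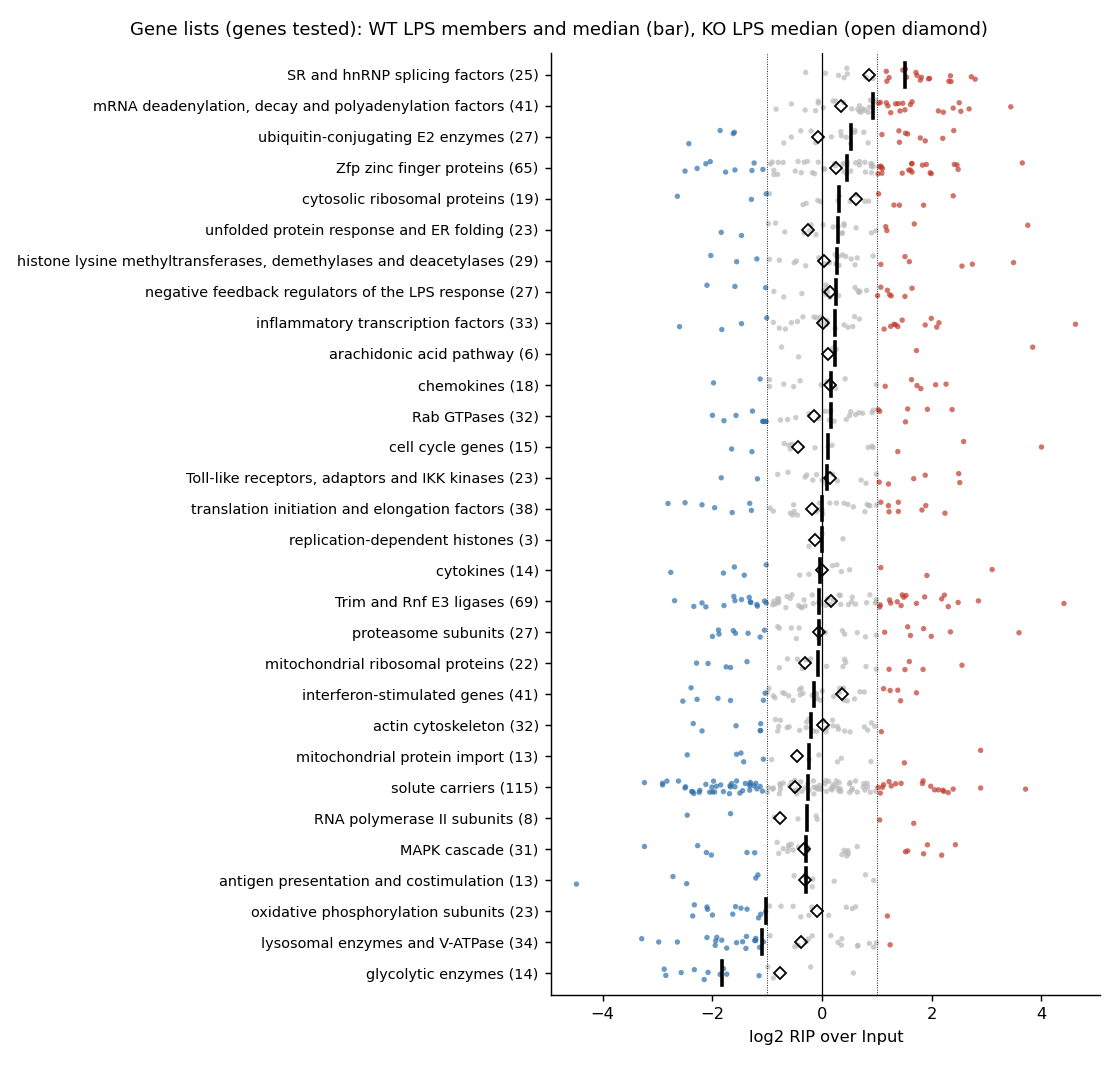
Log2 RIP over Input of the members of 30 gene lists in the WT LPS pair (points; red over 1, blue under -1), with the list median (black bar) and the median in the KO LPS pair (open diamond); the number of genes tested is in parentheses. SR and hnRNP splicing factors lie highest, at a median of 1.52, and glycolytic enzymes lowest, at -1.83, with most other lists spread over both sides of 0.

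Glycolytic enzymes were the lowest list, with 14 of 19 members tested, none enriched and 10 depleted, at a median of -1.83. Hk2, the inducible hexokinase, had 1536 RIP and 788 Input reads (0.57, 0.44 to 0.70), and Pfkfb3, which makes the allosteric activator of phosphofructokinase, had 2926 and 2575 (-0.21). The other hexokinases, Hk1 and Hk3, stood at -1.80 and -1.74. Gpi1, of the second step, stood at -2.33, Pfkl at -0.99, Aldoa at -2.57, Tpi1 at -2.15, Pgk1 at -2.08, Pgam1 at -0.89, Eno1 at -2.85, Pkm at -1.86 and Ldha at -1.15. Gapdh had 9 and 55 reads over a 179-base region (-2.88, -4.21 to -1.98), and it has many near-identical copies in the genome among which reads can be divided. The median GC content of this list was 52.6%, and its median in the KO LPS pair was -0.76.

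Lysosomal enzymes and V-ATPase subunits (34 of 47 tested) had 18 depleted members and 1 enriched, at a median of -1.10. Atp6v0a1, a subunit of the proton pump, stood at -2.98, and Gaa, the lysosomal glucosidase, at -2.64. Ctsb, cathepsin B, had 1930 and 3086 reads (-1.07, -1.15 to -0.99). The member above the threshold was Lamp2, a lysosomal membrane protein, with 1848 and 593 reads (1.24, 1.11 to 1.38) and 5 canonical CPEs at a GC content of 35%. Oxidative phosphorylation subunits had 23 of 79 members tested, 12 depleted and 1 enriched (median -1.03). Atp5d stood lowest with 57 and 225 reads (-2.36), and Atp5f1 highest with 53 and 17 (1.19). Their median in the KO LPS pair was -0.09 over 18 genes with enough reads there, which had a WT LPS median of -1.27. Library totals would bring these medians to nearly the same value.

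Antigen presentation and costimulation genes had 13 of 20 members tested, none enriched and 5 depleted (median -0.30). The depleted ones were MHC and MHC-associated mRNAs: Cd74 stood at -4.48, H2-Ab1 at -2.72, H2-T23 at -2.47, H2-K1 at -1.21 and H2-D1 at -1.17, and the MHC genes share reads with their paralogs. The peptide transporter Tap1 had 489 and 193 reads (0.94), and Cd274, which encodes the checkpoint ligand PD-L1, 2829 and 1844 (0.22). Solute carriers (115 of 276 tested) had 19 enriched and 39 depleted members, and Slc38a10 stood lowest at -3.24. The actin cytoskeleton list (32 of 32 tested) had 1 enriched and 6 depleted members, from Actr3, of the Arp2/3 complex, at 1.08 to Capg, a filament-capping protein, at -2.35. On library totals the medians of the lists between -0.51 and 0 would be above 0, while the order of the lists would not change.

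Inflammatory mRNAs were found on both sides. Cytokines had 14 of 22 members tested, 3 enriched and 5 depleted (21.4% and 35.7%, against 23.7% and 24.9% of all genes), at a median of -0.03. Il6, the acute-phase cytokine, had 134 RIP and 11 Input reads over 420 bases with 4 canonical CPEs and 5 AUUUA, a log2 ratio of 3.10 (2.33 to 4.25). Tnfsf9, a costimulatory ligand, stood at 1.91 and the anti-inflammatory Il10, with 46 and 16 reads, at 1.07 (0.28 to 2.05). Tnf had 818 and 828 reads (-0.41, -0.55 to -0.27), Il1b 1092 and 983 (-0.24) and Il1a 1185 and 750 (0.27). Depleted were Tgfb1 (-2.76), Csf3 (-1.80), Ebi3 (-1.60), Il27 (-1.42) and Mif (-1.02). Tgfb1 had a GC content of 76.3%, and Il6 one of 25%.

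Chemokines, which recruit leukocytes, had 18 of 28 members tested, 6 enriched and 2 depleted (33.3% and 11.1%, against 23.7% and 24.9% of all genes), at a median of 0.17. The neutrophil attractants Cxcl3 (403 and 63 reads, 2.26), Cxcl1 (241 and 52, 1.80) and Cxcl2 (1169 and 401, 1.15), and the monocyte attractants Ccl2 (292 and 52, 2.07) and Ccl7 (1.73), were enriched, together with Cxcl11 (1.63). In the KO LPS pair Ccl2 stood at 1.5, Ccl7 at 1.17, Cxcl11 at 1.13, Cxcl2 at 1.11, Cxcl1 at 0.79 and Cxcl3 at 0.62. Cxcl3, Cxcl1 and Cxcl11 had only 49, 26 and 23 reads in that pair, below the read minimum. The list median in the KO LPS pair was 0.14 over 12 genes, which had a WT LPS median of 0.04. The difference between the pairs was not tested. Ccl9, the chemokine with the most Input reads in the WT LPS pair, had 5612 and 4023 (0.09, 0.03 to 0.15). Ccl22 had 87 and 263 reads (-1.98), and its Input reads in the KO culture were 45, so this value rests on the WT Input: against the KO Input it was 0.21.

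The negative feedback regulators of the LPS response had 27 of 31 members tested, 7 enriched (25.9%, near the 23.7% of all genes) and 3 depleted (11.1%, against 24.9%), at a median of 0.25. Dusp1, the phosphatase that switches off p38 and JNK, had 458 and 148 reads (1.23, 0.97 to 1.51), Dusp6 stood at 1.26 and Nfkbia, the inhibitor of NF-kB, at 1.19. Il1rn, the interleukin 1 receptor antagonist, had 4014 and 2845 reads (0.10, 0.03 to 0.17), Socs3 2839 and 2056 (0.07, -0.01 to 0.15), Tnfaip3 1027 and 743 (0.07, -0.06 to 0.21) and Socs1 593 and 280 (0.69, 0.48 to 0.90). These 4 were within 2-fold of the Input. Tnip1, a partner of Tnfaip3, stood lowest with 156 and 513 reads (-2.10), followed by Atf3 (-1.59) and Nfkbie (-1.03). In the KO LPS pair Nfkbia stood at 1.29, Dusp6 at 0.60 and Tnip1 at -0.84.

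The fixed inflammatory and control mRNAs were also set beside the KO LPS pair, whether or not they passed the threshold in WT. Dusp1 stood at 0.22 (-0.16 to 0.58) in KO, Socs1 at -0.55 and Zfp36 at -0.42, each below its WT value by more than counting error. Hif1a, the hypoxia-inducible factor, had overlapping intervals, 1.13 to 1.45 in KO and 1.2 to 1.48 in WT, and Cxcl2 stood at 1.11 and 1.15. Ptgs2, the inducible cyclooxygenase, went from 1.72 (1.61 to 1.84) to 0.88 (0.70 to 1.07). Tnfaip3 was higher in KO, at 0.89 against 0.07. So was Tnf, with intervals of -0.23 to 0.22 in KO and -0.55 to -0.27 in WT. Library totals would raise every WT value against its KO value. This turns the order of Tnfaip3 and Tnf round and sets Hif1a, Cxcl2 and Il1rn higher in WT. Txnip, a thioredoxin-binding protein, had 1055 and 421 reads in WT (0.93, 0.77 to 1.10) and -0.60 (-0.88 to -0.34) in KO, and Vegfa 548 and 172 reads (1.27, 1.03 to 1.53) and 0.34 in KO. Tbp, a reference gene, stood at 0.42 (-0.10 to 0.97) in WT and at -0.15 (-0.83 to 0.47) in KO. The WT and KO intervals also overlapped for Il6, at 3.10 (2.33 to 4.25) in WT and 2.03 (0.82 to 3.65) in KO. The same held for Ccl2 (KO 1.5, 0.8 to 2.27), Cxcl1 (KO 0.79, -0.44 to 2.01), Il10, Il1a and Gapdh (KO -1.5, -2.94 to -0.54).

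**Figure D5:**
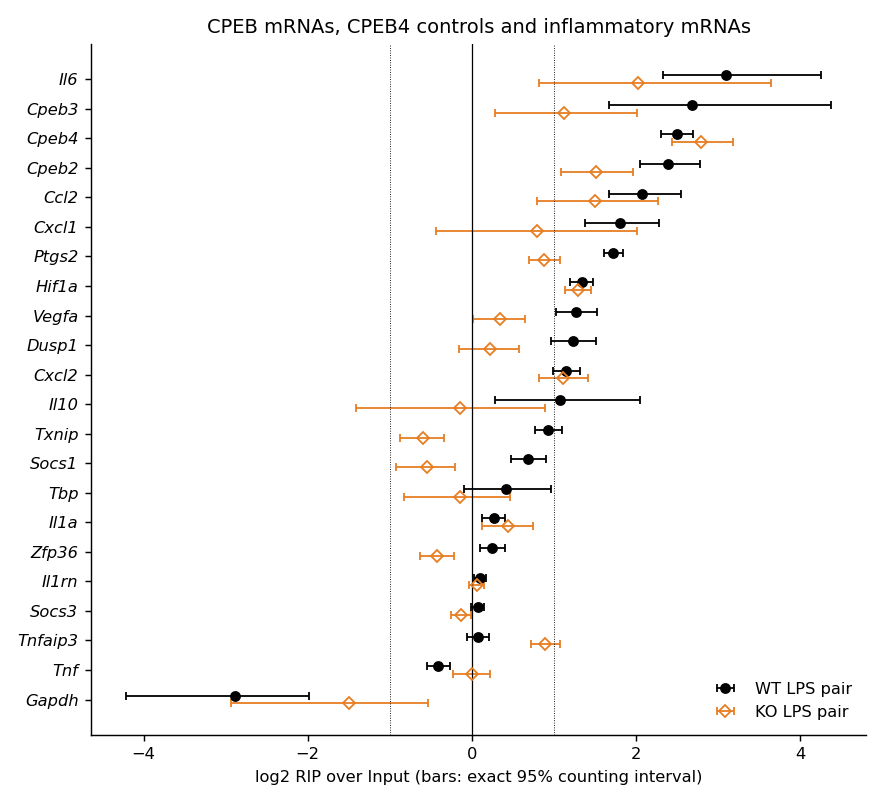
Log2 RIP over Input of CPEB mRNAs, control mRNAs and inflammatory mRNAs (vertical axis) in the WT LPS pair (black circles) and the KO LPS pair (open diamonds), with exact 95% counting intervals as bars and 2-fold as dotted lines. Txnip, Socs1, Zfp36, Dusp1, Vegfa, Ptgs2 and Cpeb2 are higher in the WT pair, and Tnfaip3 and Tnf are higher in the KO pair. The intervals of Hif1a, Cxcl2, Il1rn, Il6, Ccl2, Cxcl1, Il10, Il1a, Gapdh, Tbp, Cpeb3 and Cpeb4 overlap, and those of Socs3 meet at -0.01. Library totals would raise every WT value against its KO value and set Hif1a, Cxcl2, Il1rn, Tnfaip3 and Tnf higher in the WT pair.

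Signalling and transcription factors spread over the whole range. Among inflammatory transcription factors (33 of 41 tested, 11 enriched, 4 depleted, median 0.24), Nfe2l2, the regulator of the oxidative stress response, had 225 RIP and 6 Input reads (4.62, 3.69 to 6.30). Its interval in the KO LPS pair overlapped this one (3.87, 2.57 to 6.59). Within NF-kB the subunits differed in the WT LPS pair: Rel stood at 2.09 and Nfkb1 at 0.68, Relb at -0.89, Nfkb2 at -1.83, and Rela, with 72 and 336 reads, at -2.60 (-3.0 to -2.24). The same subunits lay above and below 0 in the KO LPS pair: Rel at 1.54, Nfkb1 at 0.15, Relb at -1.17, Nfkb2 at -0.37 and Rela at -1.09. In the MAPK cascade (31 of 39 tested, 6 enriched, 6 depleted, median -0.29) Mapk8, which encodes JNK1, stood at 1.52, Hras at -2.11 and Mapk14, which encodes p38α, at -1.37. Mapk3 stood at -3.24 over a region of 79 bases.

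Of the Toll-like receptor pathway 23 of 30 members were tested, 6 enriched (26.1%, near the 23.7% of all genes) and 2 depleted (8.7%, against 24.9%), at a median of 0.08. Tbk1, a kinase of the interferon branch, had 164 and 21 reads (2.51, 1.91 to 3.30) and Chuk (IKKα) stood at 2.49. Tlr4, the LPS receptor, stood at 1.88, whereas the adaptor Myd88 stood at 0.07. In the KO LPS pair Tbk1 stood at 2.5 (1.81 to 3.35), the same as in WT within counting error, Chuk at 0.93 and Myd88 at -0.88. The list median there was 0.14 over 18 genes. Interferon-stimulated genes (41 of 41 tested) had 5 enriched and 7 depleted members and a median of -0.15 in the WT LPS pair, against 0.36 in the KO LPS pair. On library totals the order of these medians would be turned round. Rsad2 (viperin) had 4883 and 2987 reads (0.32), and Ifi35 stood lowest at -2.54. In the arachidonic acid pathway (6 of 15 tested, 2 enriched) Pla2g4a, which releases arachidonic acid, had 112 and 5 reads (3.84) and Ptges, a prostaglandin E synthase, 2545 and 3241 (-0.74).

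The remaining lists had both enriched and depleted members, apart from the histones. In the unfolded protein response (23 of 25 tested, 4 enriched, 2 depleted) Atf4 had 52 and 2 reads over 80 bases (3.75, 2.38 to 7.39) and Xbp1 130 and 357 (-1.84, -2.15 to -1.56). Translation factors (38 of 65 tested) had 8 and 7 (21.1% and 18.4%) and Rab GTPases (32 of 56) 6 and 8 (18.8% and 25%), near the 23.7% and 24.9% of all genes. Trim and Rnf E3 ligases (69 of 123) had 17 and 15, proteasome subunits (27 of 48) 7 and 8, and mitochondrial ribosomal proteins (22 of 77) 5 and 5. Mitochondrial import factors (13 of 23) had 2 and 5, RNA polymerase II subunits (8 of 13) 2 and 2, cell cycle genes (15 of 36) 3 and 2, and histone-modifying enzymes (29 of 49) 6 and 3. Only 3 of 55 replication-dependent histone genes, whose mRNAs lack a poly(A) tail, had enough reads, and none of the 3 was past the threshold.

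The ratio differed little with the response to LPS. Genes were grouped by the LPS over untreated ratio of the KO Inputs, which are not part of the WT LPS ratio. The median log2 RIP over Input was -0.18 over 675 genes more than 2-fold higher after LPS, -0.23 over 3381 genes within 2-fold and -0.05 over 716 genes more than 2-fold lower. Within each group regions with a CPE prediction stood higher, at 0.38, 0.41 and 0.48, than those without, at -0.74, -0.77 and -0.61. It went instead with abundance, as read from the KO LPS Input per length of region. The least abundant of 5 equal groups, up to 5.31 RPKM, had a median of 0.95 and 47.7% enriched, and the most abundant, from 57.8 RPKM, a median of -0.74 and 4.68% enriched. Median GC content rose from 40.2% to 49.4% and median width fell from 2446 to 741 bases between them, and the minimum of 50 reads lets rare mRNAs in through a high RIP, so that these properties cannot be told apart here.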

How the data were processed

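The deposited tables held read counts per 3′-UTR region and library, which the authors made by aligning reads to mm10 with Bowtie2 2.2.2 in local mode, removing duplicates with sambamba and counting overlaps with Ensembl 3′-UTRs. The authors' RPKM columns were used to recover library totals. Columns of fold changes, p-values, MACS 1.4.2 peaks and peak scores hold the authors' own comparisons and were not used. Of 31117 rows, 495 had no symbol and were left out; no other sample column was found (0 unused). The numbers of canonical CPEs and PASs read from GRCm38.p6 equalled those of the table in 100.0% of rows with a symbol.

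Log2 ratios were computed in Python 3.11.15 with pandas 2.3.3 and scipy 1.17.1, and the step was tested on simulated counts. Named genes were the 12 highest and 12 lowest with at least 10 reads in each library, the highest, the lowest and the most abundant member of each list, a fixed set of CPEB, control and inflammatory genes, and for a few lists further members picked after their values were seen. The comparison, gene lists and named genes were chosen with earlier results of these data known. Alternatives changed the scaling (edgeR 4.0.16 TMM, median of ratios, library totals), the reads added, the read minimum, the region, the Input and the threshold. No p-value was computed, as each side had 1 library. Some named genes and 1 sequence are not reported here.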

Additional observations from a re-analysis of the deposited data

How the results depend on the processing

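The prediction difference, the width difference and the higher share of predictions among enriched than depleted genes kept their direction in each alternative in which they were computed. Which of the 2 counts was larger did not: enriched genes (1390) were fewer than depleted ones (1460), but 1494 against 1353 with TMM, 1494 against 1355 with the median of ratios, 1302 against 1253 without overlapping regions and 1392 against 1199 with the KO LPS Input, and they were also more on library totals and with at least 200 reads. With other thresholds only the counts and shares were computed, and with GC bins only the differences. Of the named genes past the 2-fold threshold 1 turned round: Ccl22, at 0.21 against the KO LPS Input. Named genes within 2-fold were not counted here. Library totals, which add 0.51, change the sign of those just below 0, such as Tnf (-0.41) and Il1b (-0.24). No paired analysis was possible because each side had 1 library. On library totals the counts were 2128 enriched and 860 depleted genes, of which 63.1% and 8.26% carried a prediction. With at least 10 reads 2362 genes were depleted, the shares were 61.0% and 11.1%, and the prediction difference over width bins was 1.23. With at least 200 reads 695 genes were enriched and 604 depleted, the enriched share was 71.7% and the prediction difference 0.90. With at least 20 Input reads the width difference was 1.44, and 998 genes were enriched and 1857 depleted. Against the KO LPS Input the prediction difference was 0.94. Beyond a log2 ratio of 0.5 there were 2109 enriched genes, and the shares were 63.2% and 18.1%; beyond 2 there were 402 enriched and 422 depleted genes, and the depleted share was 5.69%. Chosen after the values were seen, GC bins lowered the prediction difference to 0.48, GC and width cells lowered it to 0.41, and GC bins lowered the width difference to 0.44. The TMM and median-of-ratios scalings moved the median of all genes from 0.02 to 0.10 and library totals moved it to 0.53. Apart from the fewer or more genes tested under other read minimums, the causes were not tested. Among 129 named genes 71 changed by more than their counting interval on library totals and 48 against the KO LPS Input. Depth limits genes with few Input reads most: the interval of Atf4, with 2, spans 2.38 to 7.39.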
